A study of Mus musculus with 9 samples.

Results

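Genomic imprinting was examined here through 53 listed mouse imprinted genes, read out gene by gene in mouse embryonic stem cells built for the removal and return of Suz12, a core subunit of the Polycomb repressive complex PRC2. The members were chosen from a list of known imprinted genes, including the non-canonically imprinted Sfmbt2, Gab1, Smoc1, Slc38a4 and Jade1, by a rule that uses no measured value. All 53 matched exactly 1 gene among the 48440 genes of the count tables. Of these 53, 50 had at least 1 count, 41 passed the filter on low counts and were tested together with all 20838 tested genes, and 37 of the 41 averaged 1 or more CPM, the count scaled to library size, in some group. The remaining 12 were not tested because their counts were at or near 0.

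All 9 libraries came from J1 cells of genotype Suz12-AID, a line in which an auxin-inducible degron (AID) tag lets auxin direct the tagged protein to the proteasome. The cells were grown on gelatin in serum medium with LIF and the 2i inhibitors PD0325901 and CHIR99021. The 3 groups were Mock, Auxin (50 µM indole-3-acetic acid for 96 h) and Reintroduction (auxin followed by a washout of 4.5 h), with 3 biological replicates each, and polyadenylated RNA was sequenced. Every group, Mock included, carries the degron, and the labels give no untagged line and do not say whether the line is 1 clone or what the Mock cells received.

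Imprinted genes are transcribed mainly from the copy inherited from 1 parent. In most clusters a differentially methylated imprinting control region, marked in the egg or sperm and protected in the embryo by ZFP57 and TRIM28, sets which copy is active, and a long non-coding RNA such as Airn, Kcnq1ot1 or Meg3 often lies across it. PRC2 deposits H3K27me3: this mark adds to silencing in the placental Igf2r and Kcnq1 clusters, and in non-canonical imprinting maternal H3K27me3, rather than DNA methylation, is inherited from the egg. Both DNA methylation and the imprints themselves can drift in cultured embryonic stem cells, 2i medium included. The libraries give total RNA per gene, so the parental copies were not separated, and a gene that rose may have done so from either copy or both.

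The promoter windows of 5 members with large changes are shown because they differ in CG content, the dinucleotide at which DNA is methylated. Each is the 250 bases upstream of a RefSeq start on build GRCm38.p6, written 5′ to 3′ on the gene's strand, with CG dinucleotides in capitals. The windows lie at chr17:12769707-12769956 for Igf2r, chr11:12037421-12037670 for Grb10, chr11:11898145-11898394 for Ddc and chr7:62420154-62420403 for Mkrn3, all on the minus strand, and at chr2:10370201-10370450 for Sfmbt2 on the plus strand.
Igf2r: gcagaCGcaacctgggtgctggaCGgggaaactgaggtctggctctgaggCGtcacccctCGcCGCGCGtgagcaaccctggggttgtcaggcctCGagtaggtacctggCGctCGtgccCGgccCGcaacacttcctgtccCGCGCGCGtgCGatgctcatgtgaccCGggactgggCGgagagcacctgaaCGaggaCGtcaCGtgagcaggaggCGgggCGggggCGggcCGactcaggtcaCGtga
Grb10: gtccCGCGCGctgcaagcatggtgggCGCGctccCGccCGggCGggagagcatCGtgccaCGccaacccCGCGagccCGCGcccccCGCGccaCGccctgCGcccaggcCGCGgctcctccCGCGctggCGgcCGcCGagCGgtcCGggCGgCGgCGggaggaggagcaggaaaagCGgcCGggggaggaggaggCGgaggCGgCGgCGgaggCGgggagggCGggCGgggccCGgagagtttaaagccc
Ddc: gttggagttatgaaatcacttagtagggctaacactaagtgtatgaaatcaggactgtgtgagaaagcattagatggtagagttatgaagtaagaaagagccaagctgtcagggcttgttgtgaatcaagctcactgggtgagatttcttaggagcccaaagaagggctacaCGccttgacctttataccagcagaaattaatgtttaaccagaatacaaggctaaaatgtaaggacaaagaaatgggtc
Mkrn3: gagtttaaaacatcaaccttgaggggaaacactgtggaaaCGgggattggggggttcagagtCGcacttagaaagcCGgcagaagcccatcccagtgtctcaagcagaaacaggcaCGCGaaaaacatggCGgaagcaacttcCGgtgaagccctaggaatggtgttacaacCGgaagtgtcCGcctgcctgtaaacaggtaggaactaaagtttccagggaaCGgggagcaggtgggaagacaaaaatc
Sfmbt2: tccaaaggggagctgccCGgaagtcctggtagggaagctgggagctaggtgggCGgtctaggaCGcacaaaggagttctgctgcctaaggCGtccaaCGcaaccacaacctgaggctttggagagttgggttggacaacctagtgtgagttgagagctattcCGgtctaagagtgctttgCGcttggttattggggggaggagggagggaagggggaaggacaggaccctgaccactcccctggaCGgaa

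These windows held 27, 40, 1, 10 and 8 CG dinucleotides for Igf2r, Grb10, Ddc, Mkrn3 and Sfmbt2, in that order. RefSeq gives 3 of these genes a second start: the windows there, not printed, held 8 CG for Grb10, 4 for Ddc and 15 for Sfmbt2, so the printed window is the richer one for Grb10 and the poorer one for Ddc and Sfmbt2. Of the 53 members 41 had a RefSeq promoter entry, and their median CG count was 14 in the window with the most, against 6 over 27025 genes. The hexamer TGCCGC, the core of the ZFP57 recognition sequence, was searched on both strands and occurred in the windows of 6 of 41 members (14.6%), namely Copg2, Meg3, Mest, Plagl1, Slc22a2 and Zim1, against 9.8% of all genes. A match is only a match of letters, and methylation and binding were not measured.

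Libraries held 44341283 to 113931419 counts, and log CPM correlated at 0.989 to 0.995 within groups and 0.936 to 0.977 between them. Suz12 RNA was 125 to 138 CPM in Mock, 122 to 152 in Auxin and 164 to 173 in Reintroduction, which says nothing of the protein the degron acts on. Markers of the stem-cell state stayed abundant: all 10 pluripotency genes were tested, and their summed level was 6297 to 6488 CPM in Mock, 7779 to 8383 in Auxin and 6003 to 6059 in Reintroduction. In Auxin against Mock 7 were higher and 2 lower, beside 38.4% and 34.8% of all genes. The lower ones were Pou5f1 (mean 844 to 583 CPM) and Dppa5a (411 to 184). The 8 primitive endoderm markers, all tested, summed to 13.4 to 15.0 CPM in Mock, 25.5 to 27.4 in Auxin and 19.4 to 20.6 in Reintroduction. In Auxin 7 of these were higher than in Mock, and Col4a1 was lower (mean 7.27 to 3.28 CPM). Of 8 trophoblast markers, 6 were tested, Elf5 and Plac1 were near 0, and the sums were 62.7 to 65.9, 108 to 119 and 110 to 115 CPM. These sums were nearly all Eomes (means of 35.4, 25.6 and 66.9 CPM) and Tfap2c (27.2, 86.6 and 45.0). In Auxin against Mock 4 of the 6 were higher and 2 lower, beside 38.4% and 34.8% of all genes. Besides Tfap2c, the higher ones were Gata3 (mean 0.101 to 0.471 CPM), Hand1 (0.0657 to 0.326) and Krt7 (0.0669 to 0.206). Eomes and Cdx2 were lower, and Cdx2 went from 1.70 CPM in Mock to 0.0825 in Auxin and 0.783 in Reintroduction. Of 8 fibroblast markers, 4 were tested and Twist2 had no count, and nearly all of the sums of 848 to 932, 1355 to 1470 and 818 to 856 CPM was Fn1. The part of these cells in the changes described here was not tested, and in bulk RNA fewer cells of a type and less RNA per cell cannot be told apart.

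Mock libraries also favoured short transcripts. Over all tested genes the Auxin against Mock difference had a median of -0.29 on the log2 scale in the lowest decile of exon length and 0.59 in the highest. For Reintroduction against Mock the corresponding medians were -0.30 and 0.52, whereas for Reintroduction against Auxin they were 0.063 and -0.018. Many imprinted genes are long (median exon length of the 41 tested, 4725 bases), so the changes against Mock are given with the value after this length trend was removed where the call or direction differed. The library Auxin 2 stood apart from the other Auxin libraries in this trend, with a slope of 0.029 per doubling of length against 0.11 and 0.12.

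After auxin most measurable imprinted genes changed, in both directions. In Auxin against Mock, 35 of 41 tested members (85.4%) passed edgeR's quasi-likelihood test at a Benjamini-Hochberg adjusted p under 0.05, 21 higher and 14 lower. Among all tested genes 73.2% passed (38.4% higher and 34.8% lower), so a call alone sets the imprinted genes little apart from the rest of a transcriptome that changed broadly. Their median log2 difference was 0.39, against 0.05 over all genes. With the length trend removed the calls were 15 higher and 17 lower and the median was -0.12, so the excess of higher over lower members depended on that trend. A change of at least 2-fold as well was seen in 14 members, 8 higher (Grb10, Igf2r, Sgce, Sfmbt2, Peg13, Mkrn3, Nnat and Kcnq1ot1) and 6 lower (Ddc, Cdkn1c, Dio3, H19, Phlda2 and Peg12), against 31.8% of all genes (19.8% higher and 12.0% lower). In 33 of 41 members (80.5%) the Auxin and Mock libraries did not overlap, against 74.3% of all genes.

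After the washout, 24 of 41 members (58.5%) differed between Reintroduction and Auxin, 13 higher and 11 lower, against 50.9% of all genes. Scaling by total counts, or keeping only genes of at least 1 CPM in 3 libraries, turned this split into 9 higher and 12 lower. Over all genes these settings gave 4279 higher and 6393 lower of 20838, and 4458 higher and 5236 lower of 15762. Only 5 members moved at least 2-fold: Dio3, Ddc, Peg10 and Peg12 rose and Igf2r fell, against 11.0% of all genes (4.16% higher and 6.82% lower). The groups were apart in 28 members (68.3%), against 58.2% of all genes. Against Mock, 35 of 41 members (85.4%) still differed in Reintroduction, 23 higher and 12 lower, against 68.1% of all genes. With the length trend removed this became 16 higher and 15 lower, and with length and GC trends removed 15 and 15. All 20838 tested genes gave 6786 higher and 7224 lower, and 6730 and 7194, in that order. In Reintroduction 20 of 41 members were at least 2-fold away from Mock, 13 higher and 7 lower, against 22.4% of all genes (15.0% higher and 7.43% lower). These 20 include several just past that fold, such as Slc22a18 at -1.01 and Mkrn3 at 1.02 on the log2 scale. With the length trend removed, those at least 2-fold away from Mock were 7 higher and 7 lower in Auxin, and 6 higher and 4 lower in Reintroduction. The matching shares of all genes are not given for that setting. In 37 members (90.2%) the Reintroduction and Mock libraries did not overlap, against 75.2% of all genes. These comparisons share libraries, so their values are given side by side and not correlated.

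**Figure D1:**
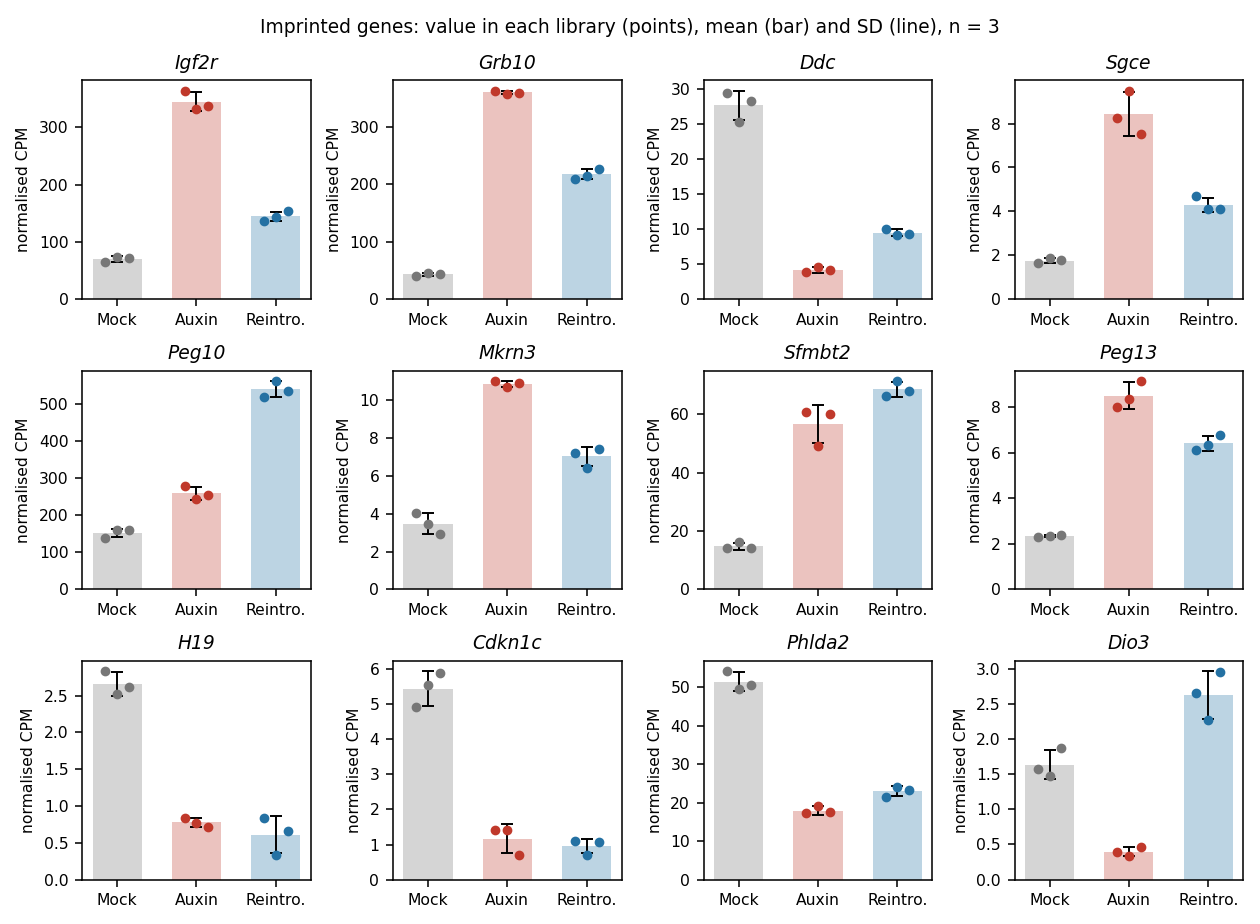
Normalised CPM of 12 imprinted genes in each library (linear vertical axes starting at 0), with Mock, Auxin and Reintroduction along the horizontal axis; points are the 3 libraries of a group, the bar is their mean and the line its SD. Igf2r, Grb10, Sgce and Mkrn3 were highest in Auxin and intermediate in Reintroduction, Ddc mirrored them, Peg10 and Dio3 were highest in Reintroduction, and H19 and Cdkn1c stayed low after the washout.

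The largest rise among the members was in the Grb10 cluster on chromosome 11. Grb10 encodes an adaptor that restrains insulin and growth factor signalling and is expressed from the maternal copy in most tissues and the paternal copy in neurons (chr11:11930508-12038683 on mm10). It measured 40.4, 44.9 and 43.9 CPM in the Mock libraries, 363, 358 and 359 in Auxin, and 210, 215 and 227 after the washout. No 2 groups overlapped, and Auxin was 8.36-fold above Mock (log2 3.06, SE 0.059, adjusted p = 6.73e-11). The washout lowered Grb10 by a log2 value of -0.73 (SE 0.055, adjusted p = 1.27e-06), to a level 5.05-fold above Mock (log2 2.33).

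Ddc, the adjacent gene (chr11:11814101-11898144), encodes aromatic L-amino acid decarboxylase and is imprinted in the embryonic heart. It went the other way, with 29.4, 25.3 and 28.2 CPM in Mock, 3.81, 4.62 and 4.09 in Auxin, and 10, 9.18 and 9.24 after the washout. Its 3 groups did not overlap either: Auxin was 6.62-fold lower than Mock (log2 -2.73, SE 0.089, adjusted p = 6.83e-10). Ddc rose 2.27-fold after the washout (log2 1.19, SE 0.090, adjusted p = 1.28e-06) and remained 2.91-fold lower than Mock. Removing the length trend left Auxin against Mock at 2.58 for Grb10 and -2.88 for Ddc, and neither gene shares exon sequence with another.

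Igf2r, on chromosome 17 (chr17:12682406-12769664), encodes the receptor that carries IGF2 to the lysosome and is the classic maternally expressed gene opposed by the antisense RNA Airn. The 3 Mock libraries held 64.7, 74.2 and 72.2 CPM, the Auxin libraries 364, 332 and 338, and the Reintroduction libraries 136, 144 and 153. Each group was separate from the others, with Auxin 4.90-fold above Mock (log2 2.29, SE 0.071, adjusted p = 5.05e-10). Igf2r was the member that fell furthest after the washout, by a log2 value of -1.25 (SE 0.069, adjusted p = 1.17e-07), yet it stayed above Mock by 1.04 (SE 0.069, adjusted p = 2.70e-07), or by 0.54 with the length trend removed. Airn itself had 0 to 6 counts in every library and was not tested, and the placental members of the cluster, the cation transporters Slc22a2 and Slc22a3, had no counts and at most 2 counts a library. The rise of Igf2r was measured where the exon counts of its antisense RNA were near 0 in all 3 groups. Only 3583 annotated exon bases of Airn were counted, in polyadenylated RNA. RNA from the rest of its span (chr17:12741311-12860122) was not counted, so these counts do not show whether Airn was transcribed.

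In the cluster on chromosome 6, the retrotransposon-derived Peg10 and its divergent neighbour Sgce (epsilon-sarcoglycan) share a paternally active control region but differed in which group was highest. Sgce (chr6:4674350-4747207) rose from 1.63, 1.86 and 1.76 CPM in Mock to 8.26, 9.50 and 7.54 in Auxin, and was 4.68, 4.12 and 4.12 in Reintroduction. Auxin was 4.82-fold above Mock (log2 2.27, SE 0.11, adjusted p = 1.22e-08), and the washout lowered Sgce by -0.97 (SE 0.11, adjusted p = 2.15e-05). No libraries of different groups overlapped. Sgce was 1.30 above Mock in Reintroduction on the log2 scale (SE 0.12, adjusted p = 2.27e-06), but 0.35 (adjusted p = 0.181) once length and GC trends were both removed.

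Peg10 (chr6:4747306-4760517), needed for placenta formation, held 140, 160 and 159 CPM in Mock, 279, 245 and 255 in Auxin, and 520, 563 and 537 after the washout. Its level thus stepped up at each condition without overlap. Auxin was 1.69-fold above Mock (log2 0.76, SE 0.070, adjusted p = 1.64e-06), and Reintroduction was 2.08-fold above Auxin (log2 1.06, SE 0.070, adjusted p = 4.80e-07) and 3.53-fold above Mock (log2 1.82, SE 0.071, adjusted p = 8.19e-09). The Auxin against Mock value fell to 0.41 (adjusted p = 3.25e-05) without the length trend, while Reintroduction against Mock was 1.48. Ppp1r9a (neurabin, an actin and phosphatase scaffold, chr6:4902917-5165661) measured 32.4, 40.9 and 40.4 CPM in Mock, 82.0, 53.0 and 83.3 in Auxin, and 76.8, 79.6 and 73.8 after the washout. Auxin 2 was the low Auxin library, but all Auxin and Reintroduction libraries lay above Mock (log2 0.94, SE 0.15, adjusted p = 1.66e-04, and 1.02, SE 0.15, adjusted p = 1.22e-04). For this long gene of 14531 exon bases, the values were 0.25 and 0.32 with the length trend removed, still called.

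**Figure D2:**
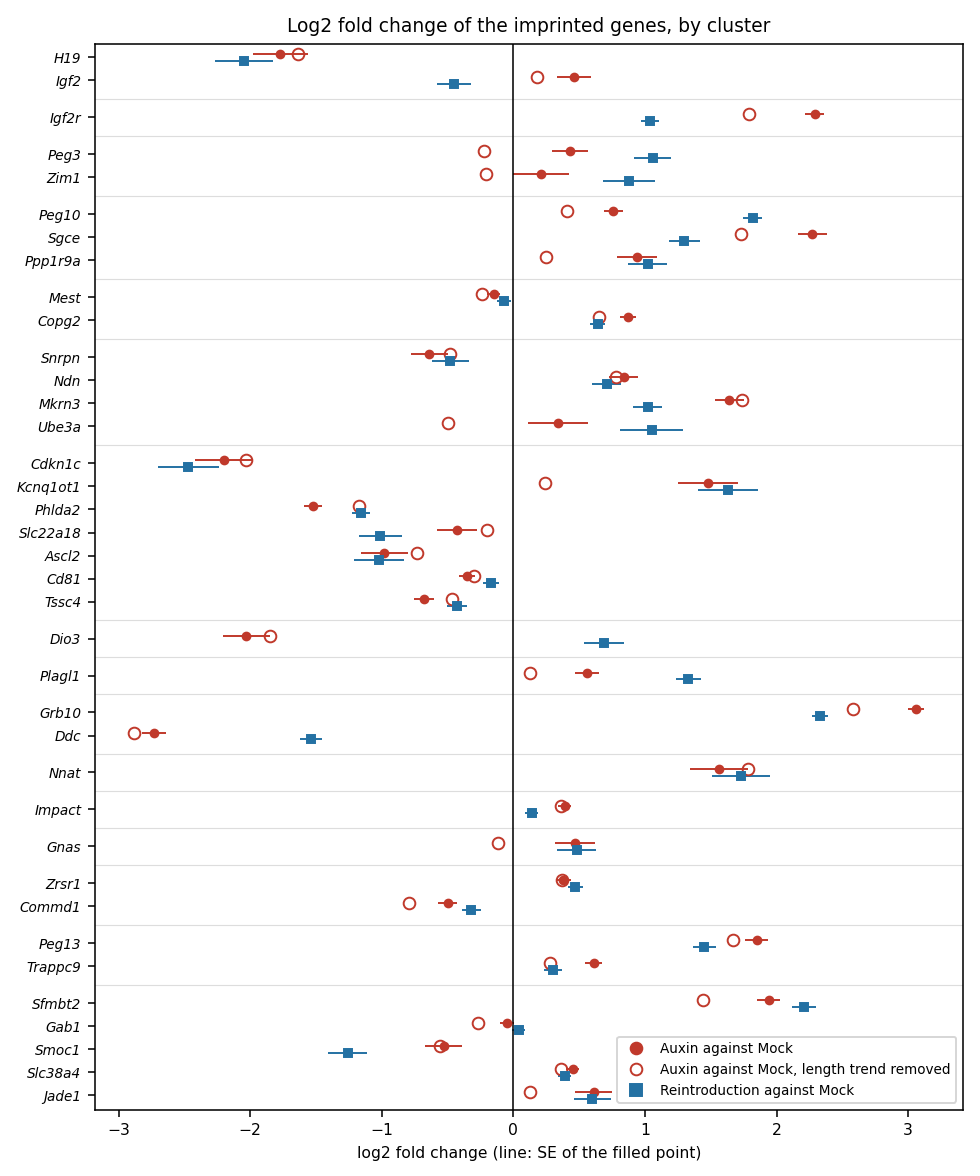
Log2 fold change against Mock (horizontal axis) of the 37 members that averaged 1 CPM or more in some group, in rows grouped by cluster; filled circles are Auxin and squares Reintroduction, each with its SE as a line, and open circles are Auxin with the length trend removed. Grb10 and Ddc lie at opposite sides (3.06 and -2.73), most of the Kcnq1 cluster lies left of 0 apart from Kcnq1ot1, and the open circles of Kcnq1ot1 and Ube3a are moved furthest to the left.

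The tested members of the Kcnq1 cluster on distal chromosome 7 went down apart from the long non-coding RNA. Of these 7, the 6 protein-coding genes fell in Auxin against Mock and Kcnq1ot1 rose, beside 34.8% lower and 38.4% higher over all genes. They are mostly short, with a median exon length of 1845 bases. With the length trend removed, 5 fell, beside 7209 of all 20838 genes, and neither Slc22a18 nor Kcnq1ot1 was called. Further imprinted genes around this cluster, from the second list below, went both ways in Auxin against Mock. Trpm5 (mean 0.387 to 0.134 CPM) and Nap1l4 (202 to 131) fell, while Osbpl5 (0.345 to 1.78) and Ano1 (0.412 to 0.677) rose. Cdkn1c encodes the cell-cycle inhibitor p57KIP2 (chr7:143458339-143461050) and measured 4.91, 5.55 and 5.88 CPM in Mock, 1.41, 1.40 and 0.687 in Auxin, and 1.09, 0.713 and 1.07 after the washout. All Mock libraries were above all others, while Auxin and Reintroduction overlapped. Auxin was 4.61-fold lower than Mock (log2 -2.20, SE 0.22, adjusted p = 3.83e-06) and Reintroduction 5.54-fold lower (log2 -2.47, SE 0.23, adjusted p = 3.60e-06). The washout difference was -0.26 (SE 0.25, adjusted p = 0.419), and -0.52 (adjusted p = 0.0359) without Auxin replicate 3. Of the Cdkn1c exon bases, 30.7% are shared with another annotated gene, so reads there may be missing from these levels.

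Phlda2, a pleckstrin-domain protein that limits placental growth (chr7:143501545-143503150), was one of the more abundant members per exon length. It held 54.2, 49.6 and 50.7 CPM in Mock, 17.2, 19.2 and 17.5 in Auxin, and 21.5, 24.1 and 23.4 after the washout. The 3 groups were separate: Auxin was 2.86-fold lower than Mock (log2 -1.52, SE 0.068, adjusted p = 5.48e-09), and a partial rise of 0.35 (SE 0.068, adjusted p = 0.00123) left Reintroduction 2.24-fold lower than Mock (log2 -1.16, SE 0.067, adjusted p = 1.04e-07). Ascl2, a transcription factor of trophoblast progenitors (chr7:142966829-142969264), was 1.69, 1.61 and 1.45 CPM in Mock, 0.903, 0.800 and 0.701 in Auxin, and 0.954, 0.802 and 0.6 after the washout. Auxin and Reintroduction overlapped below Mock (log2 -0.98, SE 0.18, adjusted p = 5.42e-04, and -1.02, SE 0.19, adjusted p = 5.82e-04).

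Slc22a18, a membrane transporter (chr7:143473736-143499334), measured 2.45, 2.14 and 2.52 CPM in Mock, 1.65, 2.14 and 1.46 in Auxin, and 1.17, 1.23 and 1.14 after the washout. Only the Reintroduction libraries were apart from the rest, 2.02-fold below Mock (log2 -1.01, SE 0.16, adjusted p = 1.67e-04). Its Auxin against Mock value of -0.43 (SE 0.15, adjusted p = 0.0213) was not called when any of Mock 1, Mock 3, Auxin 1 or Auxin 3 was left out, where it ranged from -0.42 to -0.32 (adjusted p 0.0512 to 0.0850). The tetraspanin gene Cd81 had 216, 212 and 209 CPM in Mock, 159, 183 and 157 in Auxin, and 186, 187 and 191 after the washout. Tssc4, which encodes a splicing-related protein, had 44.1, 37.5 and 39.7 CPM in Mock, 24.0, 27.7 and 24.1 in Auxin, and 30.0, 28.8 and 31.0 after the washout. Both were below Mock without overlap, by -0.35 (SE 0.062, adjusted p = 3.15e-04) and -0.68 (SE 0.077, adjusted p = 9.99e-06) in Auxin, short of 2-fold. Kcnq1, the potassium channel gene that hosts the cluster's control region, had 0 to 10 counts a library and was not tested.

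Kcnq1ot1 is the paternal antisense RNA that silences this cluster in cis (chr7:143212155-143296549). It held 3.61, 2.97 and 3.34 CPM in Mock, 11.7, 5.38 and 10.6 in Auxin, and 10.2, 9.40 and 11.1 after the washout. Every Auxin and Reintroduction library was above Mock, with Auxin 2 the lowest of them. The rises were 2.79-fold (log2 1.48, SE 0.23, adjusted p = 1.42e-04) and 3.09-fold (log2 1.63, SE 0.23, adjusted p = 9.27e-05). At 84395 exon bases it is the longest member, and removing the length trend reduced these to 0.24 (adjusted p = 0.139) and 0.076 (adjusted p = 0.641), so the call rests on how length is treated.

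Next to this cluster, H19 and Igf2 share enhancers and are expressed from opposite parental copies, the non-coding RNA H19 from the maternal and the growth factor gene Igf2 from the paternal. H19 (chr7:142575529-142578143) measured 2.83, 2.52 and 2.62 CPM in Mock, 0.842, 0.774 and 0.716 in Auxin, and 0.841, 0.334 and 0.662 after the washout. Mock was above the other 2 groups, which overlapped each other. H19 was 3.41-fold lower in Auxin than in Mock (log2 -1.77, SE 0.21, adjusted p = 1.72e-05), and Reintroduction did not pass against Auxin (log2 -0.28, SE 0.25, adjusted p = 0.370). Igf2 (chr7:142650766-142666816) was 1.91, 2.14 and 2.20 CPM in Mock, 2.48, 3.15 and 2.94 in Auxin, and 1.62, 1.58 and 1.38 after the washout. It was highest in Auxin and lowest in Reintroduction, with no overlap, and none of its changes reached 2-fold: 0.46 in Auxin against Mock (SE 0.13, adjusted p = 0.00685) and -0.90 in Reintroduction against Auxin (SE 0.13, adjusted p = 1.91e-04). The first of these was 0.18 (adjusted p = 0.235) without the length trend.

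The Prader-Willi and Angelman cluster on central chromosome 7 did not move as a block. Mkrn3, a makorin ubiquitin ligase linked to the timing of puberty (chr7:62417593-62420139), rose from 4.01, 3.48 and 2.91 CPM in Mock to 11.0, 10.7 and 10.9 in Auxin and was 7.23, 6.44 and 7.41 in Reintroduction. Its groups were separate: Auxin was 3.11-fold above Mock (log2 1.64, SE 0.11, adjusted p = 1.12e-07), the washout lowered it by -0.62 (SE 0.10, adjusted p = 5.01e-04), and Reintroduction was 2.02-fold above Mock (log2 1.02, SE 0.11, adjusted p = 1.03e-05). Ndn, a MAGE-family growth suppressor (chr7:62346569-62350262), was 7.13, 6.99 and 6.43 CPM in Mock, 10.9, 14.6 and 11.3 in Auxin, and 11.0, 11.1 and 11.4 after the washout, above Mock by 0.84 (SE 0.11, adjusted p = 2.27e-05) and 0.71 (SE 0.11, adjusted p = 1.27e-04), with these 2 groups overlapping. Snrpn, which encodes a spliceosomal protein at the cluster's control region, went down from 12.9, 12.8 and 12.1 CPM in Mock to 7.65, 10.1 and 6.53 in Auxin (log2 -0.64, SE 0.14, adjusted p = 0.00183) and was 9.79, 9.65 and 7.68 in Reintroduction. Mock was above both groups, which overlapped, and 34.1% of the Snrpn exon bases lie under other annotated genes.

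Ube3a, the maternally expressed ubiquitin ligase lost in Angelman syndrome (chr7:59228750-59311536), had 50.4, 61.8 and 61.1 CPM in Mock, 77.7, 41.5 and 100 in Auxin, and 121, 124 and 112 after the washout. Auxin spread around Mock, with Auxin 2 below it (log2 0.34, SE 0.23, adjusted p = 0.211), and without Auxin 2 the difference was 0.62 (adjusted p = 3.85e-05). Reintroduction was above both groups, by 1.05 against Mock (SE 0.24, adjusted p = 0.00222) and 0.71 against Auxin (SE 0.23, adjusted p = 0.0265). The call against Auxin was lost in 4 of 6 fits with 1 library left out. It was also lost with total counts, the 1 CPM filter or only the 2 groups fitted (adjusted p 0.0539 to 0.0582). This gene has 20626 exon bases, 27.3% of them shared with other genes, and with the length trend removed its values were -0.50 (adjusted p = 0.0114) in Auxin and 0.18 (adjusted p = 0.321) in Reintroduction against Mock. Peg12, an FRAT-family gene of the same cluster, stayed under 1 CPM at 0.739, 0.298 and 0.605 on average and fell in Auxin by -1.31 (SE 0.21, adjusted p = 1.64e-04), and Magel2 was under 0.3 CPM with no call.

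On proximal chromosome 6, Mest and Copg2 are convergent genes that overlap at their 3′ ends and are expressed from opposite copies in several tissues. Mest, an alpha/beta-hydrolase gene (chr6:30723547-30748465), was 122, 127 and 118 CPM in Mock, 109, 113 and 107 in Auxin, and 113, 118 and 118 after the washout, a change of -0.15 in Auxin (SE 0.049, adjusted p = 0.0151) that was -0.14 (adjusted p = 0.0518) without Auxin replicate 3. Its Reintroduction against Mock value of -0.071 (SE 0.050, adjusted p = 0.223) was -0.16 (adjusted p = 0.0119) with the length trend removed. Copg2, a coatomer subunit gene (chr6:30747554-30896794), went from 102, 100 and 100 CPM in Mock to 180, 199 and 174 in Auxin, and 162, 151 and 158 after the washout. Copg2 was thus 1.83-fold above Mock in Auxin (log2 0.87, SE 0.059, adjusted p = 1.25e-07), with no overlap between groups, while Mest was slightly below. Counting was without strand, and 23.1% of the Mest and 17.8% of the Copg2 exon bases are shared, so reads there cannot be assigned to either with certainty.

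Peg3 (chr7:6703892-6730431), a paternally expressed zinc-finger gene of the growth and maternal-care phenotype, measured 15.1, 19 and 17.1 CPM in Mock, 26.1, 17.2 and 25.7 in Auxin, and 34.4, 35.5 and 36.6 after the washout. Auxin overlapped Mock through Auxin 2, whereas Reintroduction was above all other libraries (log2 against Mock 1.06, SE 0.14, adjusted p = 4.85e-05, or 0.40 with the length trend removed). The Auxin against Mock value of 0.43 (SE 0.14, adjusted p = 0.0154) was not called without Mock 1 (0.34, adjusted p = 0.0797), Auxin 1 (0.33, adjusted p = 0.0801) or Auxin 3 (0.35, adjusted p = 0.0563), and with the length trend removed it turned to -0.22 (adjusted p = 0.0283). Zim1, its maternally expressed zinc-finger neighbour, was 0.573, 0.688 and 0.504 CPM in Mock, 0.549, 0.682 and 0.833 in Auxin, and 1.07, 1.2 and 1.02 after the washout. Reintroduction was again above all other libraries (log2 against Mock 0.88, SE 0.20, adjusted p = 0.00252, but 0.47, adjusted p = 0.0607, with the length trend removed), and Auxin overlapped Mock (0.21, SE 0.21, adjusted p = 0.370, or -0.21 with the length trend removed). Usp29, a deubiquitinase gene of the same cluster, stayed at or under 1 CPM on average and rose by 0.62 (SE 0.17, adjusted p = 0.0106) in Reintroduction against Auxin.

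In the Dlk1-Dio3 cluster on chromosome 12 only the last gene was measurable above 1 CPM. Dio3, the deiodinase that inactivates thyroid hormone (chr12:110279068-110281097), held 1.57, 1.47 and 1.87 CPM in Mock, 0.390, 0.341 and 0.467 in Auxin, and 2.66, 2.27 and 2.95 after the washout. It was lowest in Auxin and highest in Reintroduction, with no overlap. Auxin was 4.10-fold lower than Mock (log2 -2.03, SE 0.18, adjusted p = 1.39e-06), and the washout raised it 6.63-fold (log2 2.73, SE 0.18, adjusted p = 4.77e-07), the widest washout difference of any member, to 1.62-fold above Mock (log2 0.69, SE 0.15, adjusted p = 0.00182). Dlk1, the Notch-related growth regulator, averaged 0.118 to 0.129 CPM and was called in no comparison. The maternal non-coding RNAs were nearly silent in all groups: Meg3 had no count in any library, Rian at most 5 counts, Mirg 2 counts in 1 library, and the paternal retrotransposon-derived gene Rtl1 at most 2. Silencing of Meg3 is a known variation of cultured embryonic stem cells. For independent counts, a count of 0 allows up to 3 counts, or 0.0291 to 0.0668 CPM depending on the library. A fragment can give 2 counts here, so the limit can be higher, and it covers counting error only.

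Peg13, a non-coding RNA inside the Trappc9 locus (chr15:72805600-72810324), was 2.31, 2.35 and 2.39 CPM in Mock, 8.01, 8.36 and 9.16 in Auxin, and 6.12, 6.35 and 6.79 after the washout. The groups were separate, with Auxin 3.62-fold above Mock (log2 1.85, SE 0.086, adjusted p = 7.20e-09) and Reintroduction 2.73-fold above (log2 1.45, SE 0.087, adjusted p = 1.31e-07). Its host Trappc9, of the TRAPP vesicle-tethering complex, was 15.1, 14.1 and 13.6 CPM in Mock, 20.8, 23.2 and 21.1 in Auxin, and 16.9, 17.6 and 18.4 after the washout. It was above Mock by 0.61 (SE 0.067, adjusted p = 8.13e-06) in Auxin and by 0.30 (SE 0.068, adjusted p = 0.00207) in Reintroduction, the latter -0.0096 (adjusted p = 0.926) with the length trend removed. Nnat, a small membrane protein gene (chr2:157560078-157562522), was low at 0.563, 0.592 and 0.560 CPM in Mock, 1.90, 1.14 and 2.03 in Auxin, and 1.73, 1.76 and 2.18 after the washout. All libraries of the last 2 groups were above Mock, by 2.95-fold (log2 1.56, SE 0.22, adjusted p = 6.47e-05) and 3.32-fold (log2 1.73, SE 0.22, adjusted p = 4.02e-05).

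Plagl1, a zinc-finger regulator of other imprinted genes (chr10:13060504-13131694), was 52.9, 59.3 and 56.6 CPM in Mock, 89.5, 69.0 and 90.6 in Auxin, and 144, 144 and 138 after the washout. Like Peg10, it stepped up at each condition without overlap, by 0.56 in Auxin against Mock (SE 0.093, adjusted p = 2.09e-04) and by 0.77 in Reintroduction against Auxin (SE 0.093, adjusted p = 4.49e-05), ending 2.52-fold above Mock (log2 1.33, SE 0.094, adjusted p = 4.47e-07). With the length trend removed the first step was 0.13 (adjusted p = 0.0834) and the final difference 0.92.

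Impact, a translational regulator, was 110, 112 and 114 CPM in Mock, 150, 138 and 151 in Auxin, and 125, 124 and 123 after the washout. It was highest in Auxin and lowest in Mock, with no overlap, by 0.39 in Auxin (SE 0.050, adjusted p = 3.05e-05) and 0.14 in Reintroduction (SE 0.050, adjusted p = 0.0244); the latter was not called with the length trend removed (0.11, adjusted p = 0.0619) or when any 1 of the 6 libraries was left out. Zrsr1, a retrotransposed splicing-factor gene inside Commd1, was 11.2, 11.5 and 11.2 CPM in Mock, 15.2, 14.0 and 14.8 in Auxin, and 15.9, 15.4 and 15.7 after the washout. Commd1, of copper and endosome transport, was 48.5, 44.2 and 44.7 CPM in Mock, 30.8, 35.8 and 30.7 in Auxin, and 35.4, 37.9 and 36.7 after the washout. The nested gene was thus above Mock in Auxin (log2 0.38, SE 0.058, adjusted p = 1.11e-04) and its host below (log2 -0.50, SE 0.071, adjusted p = 6.27e-05), without overlap in either. Gnas, the stimulatory G protein locus, was 2.05, 2.40 and 2.20 CPM in Mock, 3.50, 2.31 and 3.40 in Auxin, and 3.02, 3.14 and 3.08 after the washout. Auxin overlapped Mock through Auxin 2, and the differences from Mock of 0.47 (SE 0.15, adjusted p = 0.0152) and 0.48 (SE 0.15, adjusted p = 0.0169) were -0.12 and -0.11, not called, with the length trend removed. The Auxin call was also lost without Mock 1 (0.40), Auxin 1 (0.36) or Auxin 3 (0.40), and the Reintroduction call without Mock 1 (0.39), Mock 3 (0.45) or Reintroduction 3 (0.45). Other annotated genes share 22% of the Gnas exon bases, so reads there may be missing from its level.

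The 5 non-canonically imprinted genes differed among themselves. Sfmbt2, a Polycomb-group protein gene needed in trophoblast (chr2:10370510-10595253), was 14.1, 16.2 and 14.1 CPM in Mock, 60.8, 49.3 and 60.3 in Auxin, and 66.3, 71.5 and 68.1 after the washout. Mock was far below both other groups, which did not overlap each other, and Auxin was 3.83-fold above Mock (log2 1.94, SE 0.090, adjusted p = 7.33e-09). Unlike Igf2r and Grb10 it did not come down after the washout, where it was 4.63-fold above Mock (log2 2.21, SE 0.091, adjusted p = 1.11e-08); its further rise of 0.27 over Auxin (SE 0.086, adjusted p = 0.0208) was not called without Reintroduction 2 (0.25, adjusted p = 0.0729) or 3 (0.27, adjusted p = 0.0648). Smoc1, a matricellular protein gene (chr12:81026808-81186414), went down, from 5.39, 5.06 and 4.69 CPM in Mock to 3.84, 3.63 and 3.02 in Auxin, and 2.42, 1.60 and 2.19 after the washout. Its groups were separate, and Reintroduction was 2.40-fold lower than Mock (log2 -1.26, SE 0.15, adjusted p = 1.79e-05).

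The amino acid transporter gene Slc38a4 (chr15:96994823-97055956) was 181, 189 and 191 CPM in Mock, 259, 257 and 252 in Auxin, and 235, 250 and 250 after the washout, above Mock without overlap by 0.45 (SE 0.049, adjusted p = 6.95e-06) in Auxin. Jade1, a histone acetyltransferase scaffold gene (chr3:41555731-41616864), was 320, 365 and 363 CPM in Mock, 578, 391 and 629 in Auxin, and 505, 545 and 533 after the washout. All of these lay above Mock (log2 0.61, SE 0.14, adjusted p = 0.00214 in Auxin), but with the length trend removed Jade1 was at 0.13 (adjusted p = 0.251) in Auxin and 0.15 (adjusted p = 0.224) in Reintroduction. The docking-protein gene Gab1 was 379, 391 and 398 CPM in Mock, 373, 393 and 362 in Auxin, and 391, 402 and 406 after the washout, with all groups overlapping. Its Auxin against Mock difference of -0.049 (SE 0.051, adjusted p = 0.405) was not called, but it was -0.27 (adjusted p = 6.38e-04) with the length trend removed and 0.16 (adjusted p = 0.0123) with total-count scaling; Reintroduction against Mock was 0.04 (adjusted p = 0.498) and -0.16 (adjusted p = 0.0154) with the length trend removed. Of the 5, 3 rose and 1 fell in Auxin against Mock, beside 38.4% higher and 34.8% lower over all genes. With the length trend removed, 2 rose (Sfmbt2 and Slc38a4) and 2 fell (Smoc1 and Gab1), beside 8060 and 7209 of all 20838 genes.

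**Figure D3:**
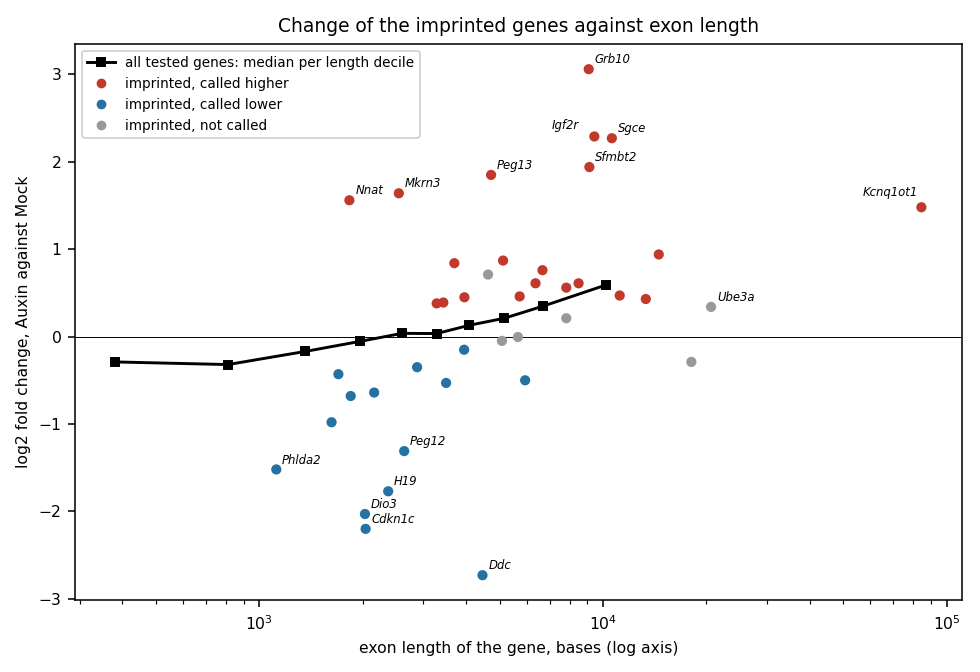
Log2 fold change in Auxin against Mock (vertical axis) of the 41 tested members by exon length in bases (horizontal log axis); each point is a member, and the black line joins the medians of all tested genes in deciles of length. The line climbs from -0.29 to 0.59. Grb10, Igf2r and Sfmbt2 lie well above it at their length, and Ddc, Cdkn1c and Dio3 well below. Sgce, Kcnq1ot1 and Ube3a are among the members beyond its right end, at 10192 bases.

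By the parental copy each gene is listed as using, 15 of the tested members are maternal, 24 paternal and 2 tissue-dependent. This listing is not specific to embryonic stem cells, and which copy was used in these cells was not measured. In Auxin against Mock, 5 maternal members rose and 8 fell (median -0.35), whereas 15 paternal members rose and 5 fell (median 0.45), beside 38.4% higher and 34.8% lower over all genes. In Reintroduction against Mock the counts were 7 and 8 (median -0.17) for maternal and 15 and 3 (median 0.53) for paternal members, beside 34.7% higher and 33.4% lower over all genes. In Auxin against Mock the maternal share that rose, 33.3%, was near that of all genes, and the share that fell, 53.3%, was above it. For paternal members these shares were 62.5% and 20.8%. With the length trend removed the Auxin counts were 5 and 8 (median -0.30) and 10 and 8 (median 0.21), so the maternal counts were the same and the paternal excess of rises shrank. Over all 20838 genes that setting called 8060 higher and 7209 lower. The maternal members that fell include 6 neighbours in the Kcnq1 cluster and so are not independent, and the difference between the copies was not tested.

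A second list held 30 further imprinted genes, most of them neighbours of the members. Of its 24 tested genes, 13 rose and 5 fell in Auxin against Mock (75.0%, beside the 73.2% of all genes), with a median of 0.53. Without the length trend 11 rose and 6 fell, beside 8060 and 7209 of all 20838 genes. Casd1, a sialic acid acetyltransferase gene, and the lactonase genes Pon2 and Pon3, all beside Peg10, rose. Pon2 went from 5.08 ± 0.304 CPM (SD, n = 3) in Mock to 14.8 ± 0.562 in Auxin and was 13.2 ± 0.876 in Reintroduction (log2 1.55 in Auxin against Mock, SE 0.076, adjusted p = 1.05e-08 by edgeR), and Pon3 went from 2.35 ± 0.232 to 8.66 ± 0.379 and was 9.07 ± 0.796 (log2 1.88, SE 0.099, adjusted p = 1.84e-08). Casd1 went from 16.6 ± 0.900 to 43.7 ± 5.61 CPM (log2 1.40, SE 0.088, adjusted p = 7.44e-08). Atp10a, a lipid flippase gene beside Ube3a, fell from 2.40 ± 0.249 to 0.223 ± 0.0563 CPM (log2 -3.43, SE 0.25, adjusted p = 2.36e-07) and was 0.279 ± 0.111 in Reintroduction.

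A further list held 20 factors that act on imprints or on DNA methylation. Of these, 19 were tested: 6 rose and 11 fell in Auxin against Mock (89.5% called, median -0.25). Among all genes 73.2% were called in that comparison, 38.4% higher and 34.8% lower. In Reintroduction against Auxin 11 rose and 1 fell (median 0.38, against 0.0027 over all genes), beside 25.5% higher and 25.5% lower over all genes. With the length trend removed 4 rose and 13 fell in Auxin and 12 rose and 2 fell after the washout, while scaling by total counts gave 7 and 8 in Auxin and 10 and 2 after the washout. Over all 20838 genes, removing the length trend gave 8060 and 7209 in Auxin and 5131 and 5943 after the washout. Total counts gave 9748 and 5662 in Auxin and 4279 and 6393 after the washout. Uhrf1, which brings DNMT1 to hemimethylated DNA, was 525 ± 9.74 CPM in Mock (SD, n = 3), 132 ± 12.0 in Auxin and 226 ± 4.14 in Reintroduction (Auxin against Mock log2 -1.99, SE 0.066, adjusted p = 7.17e-10 by edgeR). The maintenance methyltransferase gene Dnmt1 was 315 ± 3.20, 150 ± 4.43 and 196 ± 4.58 CPM (log2 -1.07, SE 0.047, adjusted p = 4.95e-09). Ehmt2, the H3K9 methyltransferase G9a, was 123 ± 4.42, 60.2 ± 2.86 and 85.6 ± 1.16 CPM (log2 -1.03, SE 0.053, adjusted p = 1.50e-08), and Dnmt3l, the cofactor of de novo methylation, was 212 ± 9.43, 86.4 ± 7.80 and 118 ± 4.85 CPM (log2 -1.29, SE 0.070, adjusted p = 2.24e-08). These 4, named for their p in Auxin against Mock, were lowest in Auxin and intermediate in Reintroduction. The 6 that rose, named after their values were seen, were Tet1, Tet2 and Tet3, which oxidise methylated cytosine, and Zfp445, Smchd1 and Arid4b. DNA methylation was not measured, and the part of these changes in those of the imprinted genes was not tested.

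**Figure D4:**
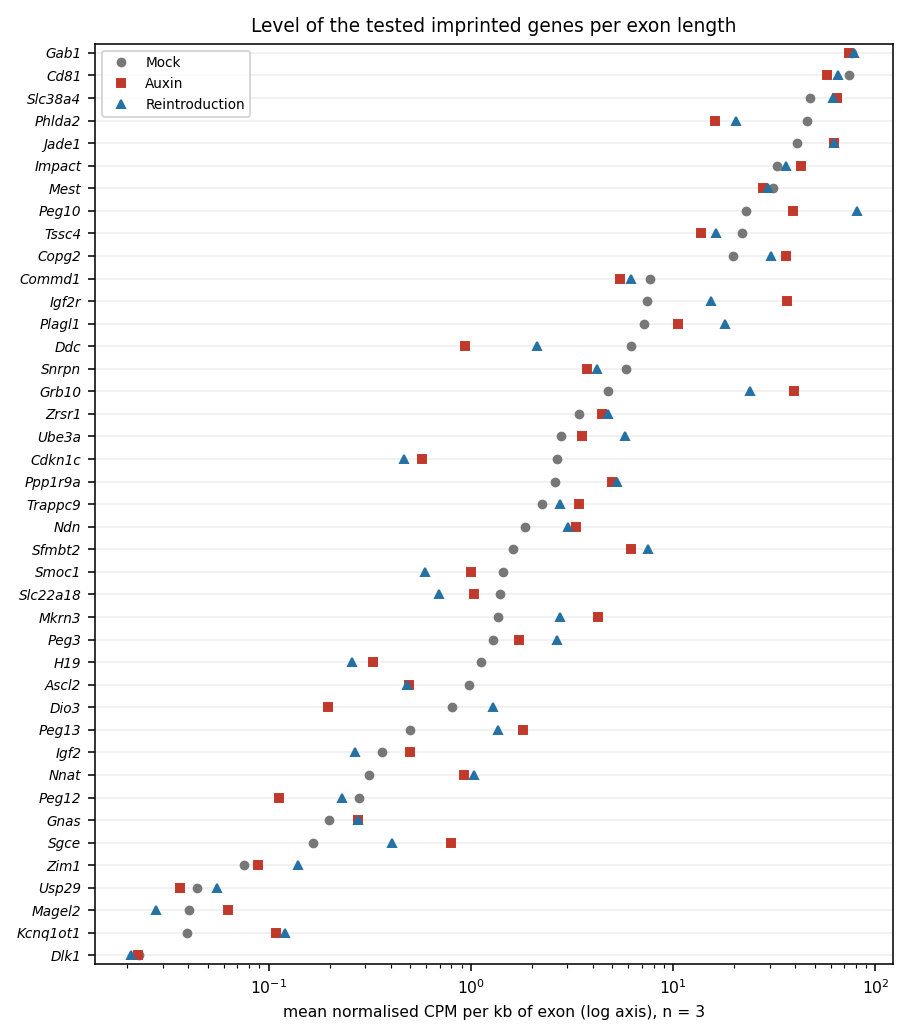
Level of the 41 tested members in CPM per kilobase of exon (horizontal log axis), sorted by the Mock mean, with 1 point for the mean of each group. Levels in Mock run from 0.0227 (Dlk1) to 76.5 (Gab1), and Grb10 moves from 4.74 in Mock to 39.6 in Auxin while Ddc moves from 6.19 to 0.935.

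Per kilobase of exon, which allows levels to be compared between genes, the 41 tested imprinted genes spanned a wide range in Mock. The highest were Gab1 at 76.5 CPM per kilobase, Cd81 at 73.7, Slc38a4 at 47.3 and Phlda2 at 45.9, and the lowest of the 41 were Dlk1 at 0.0227 and Kcnq1ot1 at 0.0392. In Auxin, Grb10 moved from 4.74 to 39.6 and Igf2r from 7.46 to 36.5, which placed them near Peg10 at 38.9 and Impact at 42.7, while Ddc moved from 6.19 to 0.935 and Phlda2 to 16.1. Among the 12 untested members, Slc22a2, Meg3 and Kcnk9 had no counts in any library, and the other 9, namely Airn, Slc22a3, Kcnq1, Rian, Mirg, Rtl1, Dcn, Rasgrf1 and Cdh15, had at most 10 counts in any library. Of the 53 members 23 share exon sequence with another annotated gene, so that reads there could be split or lost by the counting, but Igf2r, Grb10, Ddc, Sgce, Peg10, Mkrn3, Phlda2, Dio3, Peg13, Sfmbt2 and Smoc1 share none.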

How the data were processed

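The authors deposited 1 table of raw counts per library, made per the file headers with featureCounts 2.0.6 over the exons of each gene (mm10), without strand. The headers show paired reads counted as single mates, so a fragment can give 2 counts. The submitters' processing notes also name Trim Galore 0.6.10, FastQC 0.12.1, Bowtie2 2.5.3 and SAMtools 1.20, with no role given. Gene symbols came from GENCODE M21, and 40606 genes matched it in ID and position. Promoter windows came from RefSeq (GRCm38.p6).

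All 9 libraries were fitted in 1 model (group only) with edgeR 4.0.16 in R 4.3.3: TMM scaling, filterByExpr, glmQLFit and glmQLFTest, two-sided, with Benjamini-Hochberg adjustment over 20838 genes and calls at adjusted p under 0.05. CPM uses TMM-scaled totals, and SE is the log2 fold change over the square root of F. The script was tested on simulated counts. DESeq2 1.42.0, other scalings and filters, halved counts, spline offsets for each library's trend on exon length, or on length and GC content,, a replicate block and left-out libraries were alternatives. Members reaching a mean of 1 CPM in a group are given by library, with log2 fold change, SE and p where they were called at 2-fold, lay beside a cluster neighbour or depended on the processing. Of the 2 further lists, the 4 genes with the smallest p were named. The rule for the members uses no measured value, but members and lists were chosen with earlier results of these data known. The labels call the replicates biological but name no separate cultures, so p-values measure the spread between these libraries, which may be technical.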

Additional observations from a re-analysis of the deposited data

How the results depend on the processing

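Requiring a fold of at least 2 as well cut the calls to 14 members of 6625 genes in Auxin against Mock, 5 of 2289 in Reintroduction against Auxin and 20 of 4664 in Reintroduction against Mock. The other alternatives left the 3 counts of members within 1.5 times of 35, 24 and 35, and leaving out 1 library gave 31 to 36, 20 to 28 and 33 to 34. Total counts in place of TMM moved the median of all genes from 0.05 to 0.26 in Auxin against Mock and that of the members from 0.39 to 0.60. The replicate numbers did not show up as pairs: of 9 same-number pairs 2 correlated above 0.1 (-0.48 to 0.37). Pairs of different number ran from -0.53 to 0.60, so these correlations cannot settle whether the samples were paired. The replicate block gave 35, 24 (12 higher and 12 lower) and 34 members; it ended the calls of Cd81 in Reintroduction against Auxin (0.18, adjusted p = 0.0528) and Impact in Reintroduction against Mock (0.14, adjusted p = 0.0531), turned Jade1 in Reintroduction against Auxin to 0.00084, and changed no other call among members reaching 1 CPM. Values that changed sign in Auxin against Mock were, with the length trend removed and with length and GC trends removed, Peg3 -0.22 and -0.22, Zim1 -0.21 and -0.30, Ube3a -0.50 and -0.64; with length alone, Gnas -0.12; with total counts, Mest 0.055 and Gab1 0.16; and with the 1 CPM filter, Gab1 0.021. In Reintroduction against Mock these were Mest 0.059 with total counts, Gnas -0.11, Trappc9 -0.0096 and Gab1 -0.16 with length removed, Ube3a -0.26, Kcnq1ot1 -0.057, Impact -0.13 and Gab1 -0.019 with length and GC removed, and Gab1 -0.0042 (without Mock replicate 1) to 0.037 over the left-out libraries. In Reintroduction against Auxin, Ppp1r9a was -0.0061 with total counts and -0.12 without Auxin replicate 2; Kcnq1ot1 was -0.16 and -0.22 with length, and length and GC, removed and -0.14 to 0.34 over the left-out libraries (lowest without Auxin replicate 2); Ascl2 was -0.24 to 0.13 over the left-out libraries, with 0.047 without Auxin replicate 1 and 0.13 without Reintroduction replicate 3; and Nnat was -0.063 (without Auxin replicate 2) to 0.32. Gnas was -0.078 with total counts, -0.049 with the 1 CPM filter, -0.032 with halved counts, -0.0069 with only the 2 groups fitted, and -0.18, -0.0065 and -0.0082 without Auxin replicate 2, Reintroduction replicate 2 or 3. Jade1 was 0.011 with length removed, 0.028 with length and GC removed, and 0.036, 0.12 and 0.0058 without Auxin replicate 1, Auxin replicate 3 or Reintroduction replicate 1. The cause was not tested. Depth limits the 12 untested members, where a change could not be seen at 0 to 10 counts a library.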
